A study of Mus musculus with 18 samples.

Results

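The genes described here encode the slit diaphragm and the surface of the podocyte. They are *Nphs1*, *Kirrel*, *Kirrel2*, *Magi2*, *Fat1*, *Podxl*, *Trpc6*, *Plce1* and *Ptpro*, 9 of the 22909 gene symbols on the array. They were chosen by name, with no threshold on their values, and each was read in the glomerular cells of *Cd2ap* mutant and wild type mice. A row of the deposited table is a transcript cluster, the probes that the array design joins into 1 gene level signal. The 9 genes have 11 transcript clusters, and a gene with more than 1 was read from the cluster that was brightest on average.

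Podocytes wrap the glomerular capillaries with interlocking foot processes, and the slit diaphragm is the cell junction that closes the gap between neighbouring processes. Nephrin (*Nphs1*) and its relatives of the Neph family (*Kirrel* and *Kirrel2*) are immunoglobulin superfamily proteins whose extracellular parts bridge that gap, and *Fat1* encodes a very large cadherin found at the same junction. *Magi2* encodes a scaffold protein that binds nephrin, and CD2AP, the adaptor protein missing in the mutant, binds nephrin and links it to the actin cytoskeleton. Podocalyxin (*Podxl*) is the negatively charged sialomucin of the podocyte surface, also carried by endothelial cells. *Trpc6* encodes a calcium-permeable cation channel, *Plce1* a phospholipase C that acts downstream of receptors, and *Ptpro* the receptor tyrosine phosphatase of the apical podocyte membrane. Inherited defects of *NPHS1*, *TRPC6* and *PLCE1* cause glomerular disease in people.

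The mutants carried the *Cd2ap* tm1Shaw allele on both chromosomes and were compared with mice recorded as wild type, all at 5 weeks of age. Podocytes, mesangial cells and endothelial cells were obtained by sieving and dissociating glomeruli and sorting the GFP positive cells, with the reporter transgenes *Meis1-GFP* for mesangial cells and *Tie2-GFP* for endothelial cells and another GFP reporter for podocytes. Each reporter is driven by regulatory DNA of a gene that is not limited to the cell type named for it. Each of the 6 groups has 3 arrays, called A, B and C by their order among the columns. The control columns of mesangial cells carry a plus and a minus sign where the other controls carry a pair of plus signs, so a heterozygous control cannot be told apart from a wild type one there. The sources used here describe the triplicates as biological and do not state whether animals were pooled.

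Signals are RMA intensities on a linear scale. The median array signal lay between 62.8 and 71.6, and a signal of 100 was the minimum for a gene to be compared, reached by 9697 to 10097 of 28856 transcript clusters per array. *Cd2ap* itself did not pass the genotype screen in any cell type. In podocytes it was 1498 ± 17.6 (SD, n = 3) on arrays labelled mutant and 1775 ± 295 (SD, n = 3) on wild type arrays, and in mesangial cells 829 ± 37.6 against 1027 ± 101 (SD, n = 3 each; adjusted p = 0.151 by limma). In endothelial cells the arrays labelled mutant were the higher ones, at 926 ± 37.5 against 819 ± 53.9 (SD, n = 3 each). The groups did not overlap in any of these cell types. The genotypes of the arrays are therefore taken from their labels.

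The sorted cells carried their own markers. The 12 podocyte markers summed to 12836 to 15249 on podocyte arrays, and all 12 were at or above 100 on each. On mesangial arrays the 10 mesangial markers summed to 11116 to 14070, and all 10 were at or above 100. On endothelial arrays the 10 endothelial markers summed to 14850 to 17146, with 9 or 10 at or above 100. The endothelial markers summed to 2563 to 7458 on mesangial arrays. Podocyte arrays also carried endothelial markers, and these moved with genotype: the 10 endothelial markers summed to 4324 to 5721 on wild type podocyte arrays and to 1023 to 2799 on those labelled mutant. The 10 mesangial markers summed to 4571 to 5461 on wild type podocyte arrays and to 1573 to 5296 on those labelled mutant, where array C had the lowest sum.

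Wild type mesangial array C stood apart from the other mesangial arrays in the very genes described here. *Podxl* was 725 on it against a mean of 80.9 on wild type mesangial arrays A and B, and *Ptpro*, *Plce1*, *Nphs1* and *Magi2* were also higher there. The excess was set against the gap between the mean of arrays A and B and the wild type podocyte mean. It amounted to 23.8% of that gap for *Podxl*, 10.8% for *Plce1*, 9.85% for *Nphs1*, 9.80% for *Ptpro* and 7.61% for *Magi2*. Podocyte genes were not the only ones higher on it. The 10 endothelial markers summed to 7458 on it, against 2712 and 3115 on wild type arrays A and B. The 10 tubule markers summed to 1996, against 562 and 554. Single markers differed widely. The endothelial marker *Pecam1* was 807 against a mean of 94.8 on A and B, while *Plvap* was lower at 208 against 289. The tubule gene *Kap* was 841 against 44.9, while *Aqp2* was 90.8 against 85.4. *Kirrel*, *Kirrel2*, *Fat1* and *Trpc6* were not higher on array C. Results that rest on this array are given below with and without it.

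**Figure D1:**
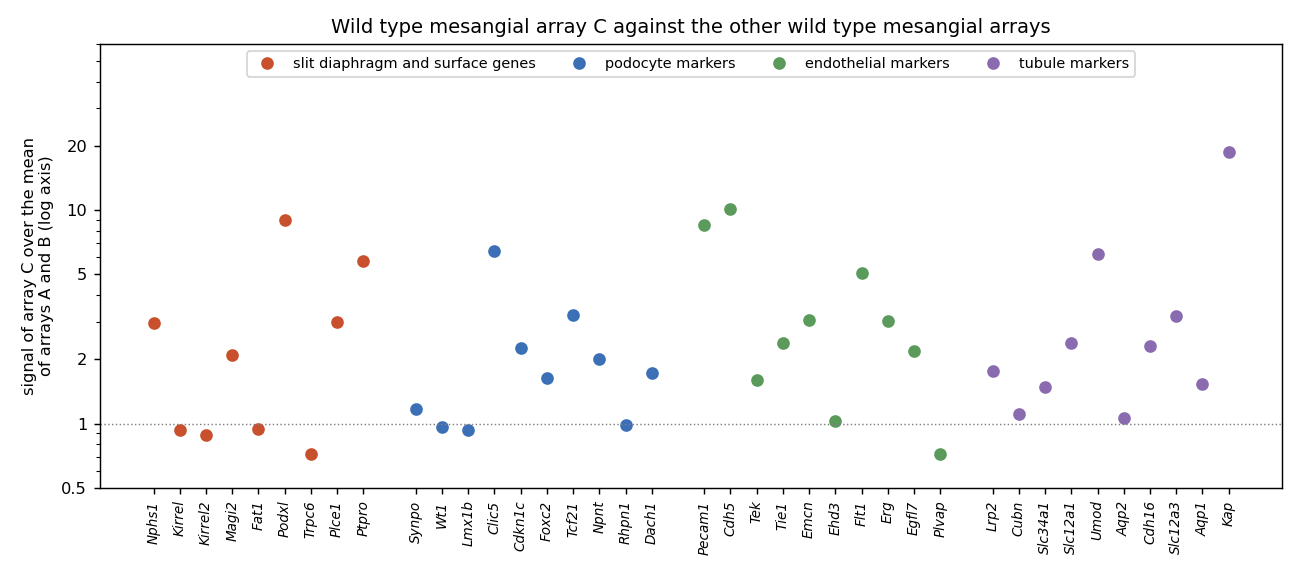
Signal of wild type mesangial array C divided by the mean of wild type mesangial arrays A and B (log axis) for the 9 genes and for podocyte markers (10 of the 12 are drawn), endothelial and tubule markers, 1 point per gene, with a dotted line at equality. *Podxl*, *Ptpro*, *Plce1*, *Nphs1* and *Magi2* lie above the line together with most markers of all 3 lists, and *Kirrel*, *Kirrel2*, *Fat1* and *Trpc6* lie at or below it.

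The sequences before the start sites of 4 of these genes are shown because *Nphs1*, *Plce1* and *Ptpro* shared a podocyte pattern below while *Kirrel2*, the neighbour of *Nphs1*, hardly left the background. RefSeq (GRCm38.p6) promoter sequences, 250 bases before to 50 bases after a start site, were found for 8 of the 9 genes, and *Podxl* had none. *Nphs1* and *Kirrel2* are transcribed away from each other from start sites 2543 bases apart. The *Nphs1* window is chr7:30459808-30460107 on the plus strand, the *Kirrel2* window chr7:30457466-30457765 on the minus strand, the *Plce1* window chr19:38523947-38524246 on the plus strand and the *Ptpro* window chr6:137252049-137252348 on the plus strand. Each is printed 5′ to 3′ along the gene, and capitals mark matches to the motifs searched.
Nphs1: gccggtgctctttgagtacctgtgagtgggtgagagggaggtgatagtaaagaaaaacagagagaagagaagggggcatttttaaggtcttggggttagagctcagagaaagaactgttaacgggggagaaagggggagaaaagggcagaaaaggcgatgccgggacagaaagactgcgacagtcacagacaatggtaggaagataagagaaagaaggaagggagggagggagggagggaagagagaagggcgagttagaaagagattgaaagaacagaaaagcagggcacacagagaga
Kirrel2: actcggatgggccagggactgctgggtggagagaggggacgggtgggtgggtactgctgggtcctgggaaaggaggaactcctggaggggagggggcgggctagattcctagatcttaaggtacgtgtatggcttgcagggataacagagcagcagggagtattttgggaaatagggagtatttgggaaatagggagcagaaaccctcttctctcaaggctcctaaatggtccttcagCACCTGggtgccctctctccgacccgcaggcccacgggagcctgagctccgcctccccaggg
Plce1: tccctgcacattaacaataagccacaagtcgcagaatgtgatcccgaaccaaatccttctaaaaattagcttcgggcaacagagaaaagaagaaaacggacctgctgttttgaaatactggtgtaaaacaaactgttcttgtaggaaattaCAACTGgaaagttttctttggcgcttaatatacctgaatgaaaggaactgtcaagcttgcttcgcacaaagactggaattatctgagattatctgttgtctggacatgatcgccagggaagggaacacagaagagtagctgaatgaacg
Ptpro: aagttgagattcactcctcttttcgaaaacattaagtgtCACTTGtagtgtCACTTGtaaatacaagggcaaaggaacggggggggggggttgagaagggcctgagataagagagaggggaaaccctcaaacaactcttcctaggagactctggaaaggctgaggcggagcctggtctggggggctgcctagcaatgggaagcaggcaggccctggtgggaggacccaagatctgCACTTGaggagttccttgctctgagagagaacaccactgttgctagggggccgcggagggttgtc

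The motifs searched, on both strands, were the E-box CANNTG, a WT1 motif GCGTGGGNG, a homeodomain motif TAATTA and a forkhead motif GTAAACA. Of 32851 RefSeq promoters of the same length, 72.3% held an E-box, 1.90% the WT1 motif, 5.29% the homeodomain motif and 3.65% the forkhead motif. The *Nphs1* window held none of the 4. The *Kirrel2* window held 1 E-box, from base 239. The *Ptpro* window held 3 E-boxes, from bases 40, 52 and 236, and the *Plce1* window 1, from base 152. Of the promoters not printed, those of *Kirrel* and *Trpc6* held none of the 4 motifs and that of *Fat1* held 3 E-boxes. Both promoters of *Magi2* held 1 E-box, and 1 of them held the WT1 motif and the other the homeodomain motif. A match describes letters in the window and no more.

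The 9 genes did not share 1 pattern over the glomerulus. In the wild type arrays *Nphs1*, *Magi2*, *Plce1* and *Ptpro* were high in podocytes and below 100 elsewhere except on mesangial array C. *Podxl* was high in podocytes and endothelial cells, *Fat1* in podocytes and mesangial cells, *Kirrel* in a descending order over podocytes, mesangial cells and endothelial cells, and *Trpc6* was highest in mesangial cells. Between wild type cell types a gene was called at a limma adjusted p below 0.05 and more than a 1.5-fold difference.

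**Figure D2:**
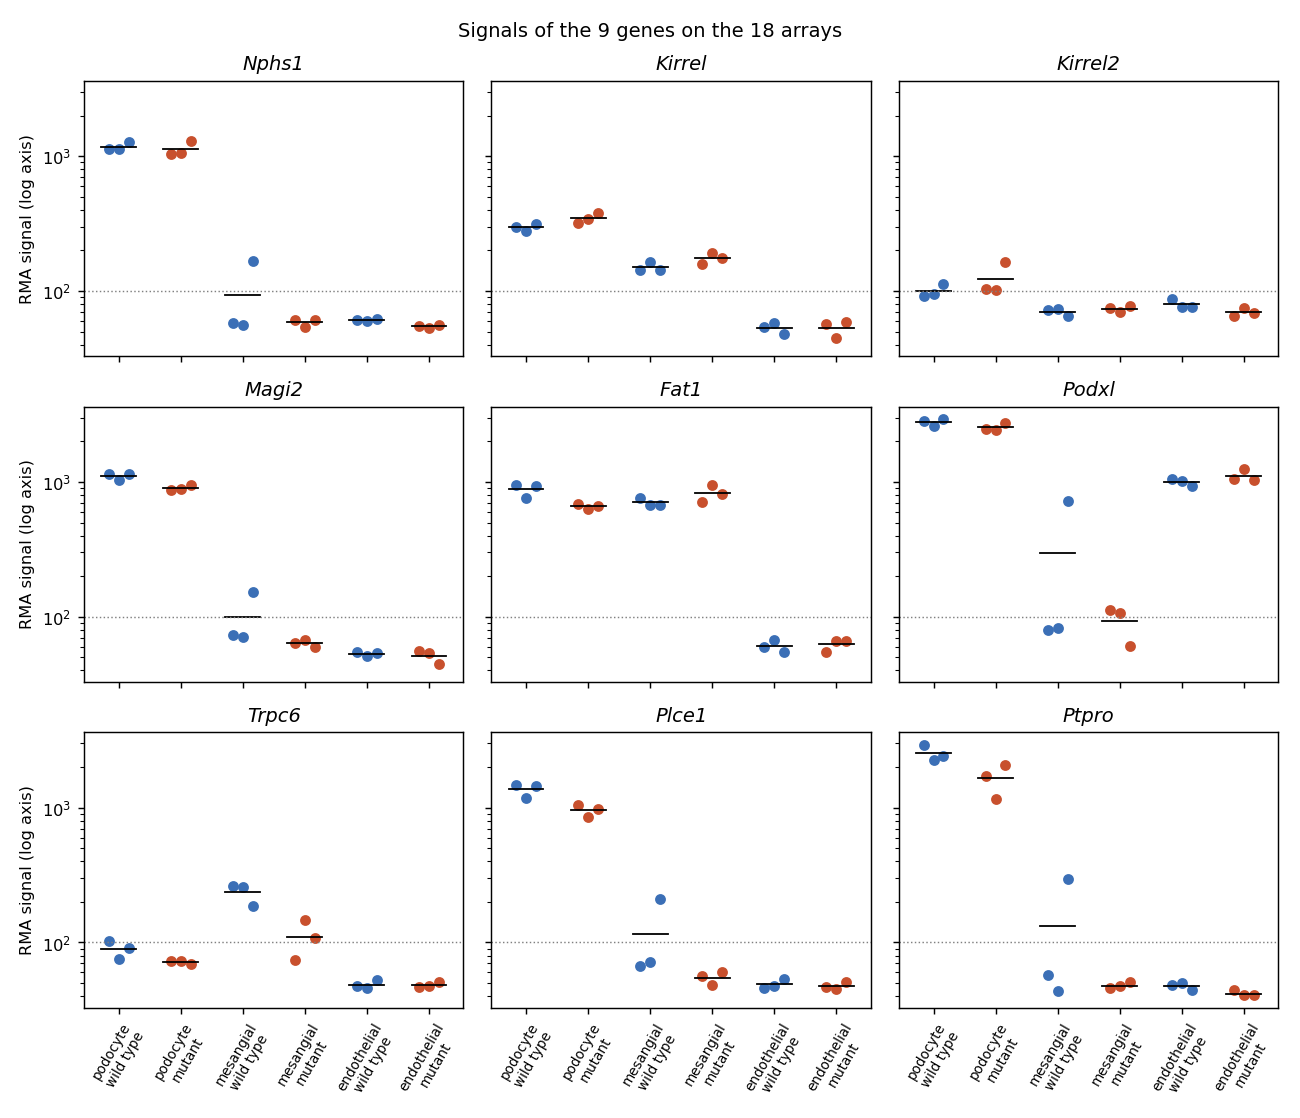
RMA signal (log axis) of each of the 9 genes on every array, by cell type and labelled genotype, with 3 arrays per group in the order A, B, C (points), group means (bars) and the minimum signal of 100 (dotted line). Of the wild type mesangial points, array C is the one apart in *Nphs1*, *Magi2*, *Podxl*, *Plce1* and *Ptpro*, and *Trpc6* alone has its highest group mean in mesangial cells.

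Of the 9 genes, 6 were higher in wild type podocytes than in wild type mesangial cells and 1 was lower, where 15.1% of the 12537 transcript clusters tested were called, 5.90% as higher and 9.24% as lower. Against endothelial cells 7 were higher in podocytes and none was lower, where 21.5% were called, 9.83% as higher and 11.6% as lower. The arrays of podocytes and mesangial cells did not overlap for 8 of the 9 genes, against 46.0% of all transcript clusters, those of podocytes and endothelial cells for all 9, against 50.8%, and those of mesangial and endothelial cells for 7, against 47.0%. Some of the 9, *Nphs1*, *Magi2*, *Plce1* and *Ptpro* among them, entered mainly through their podocyte arrays, so these counts are a description. The median log2 difference of the 9 genes was 3.59 against mesangial cells and 3.86 against endothelial cells, and that of all transcript clusters tested was -0.03 and -0.02.

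*Nphs1* gave signals of 1132, 1124 and 1284 on the wild type podocyte arrays, 58.2, 55.6 and 168 on the wild type mesangial arrays and 60.8, 60.2 and 62.3 on the wild type endothelial arrays. Podocytes stood far above both other cell types, and the endothelial and mesangial arrays other than C were near the array median. By limma the podocyte signal was 14.4-fold above the mesangial one, with an adjusted p of 4.61e-05, and 20.7-fold without array C, and it was 19.3-fold above the endothelial one. Since the compared cells were near background, the size of such a ratio is bounded by the background and not by the absence of the transcript.

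*Magi2* gave 1152, 1043 and 1149 in wild type podocytes against 73.7, 71.0 and 152 in mesangial cells and 54.6, 51.4 and 54.0 in endothelial cells. *Plce1* gave 1486, 1177 and 1443 in podocytes against 67.2, 72.2 and 209 in mesangial cells and 46.0, 47.8 and 53.4 in endothelial cells. *Ptpro* gave 2903, 2249 and 2435 in podocytes against 57.3, 43.9 and 293 in mesangial cells and 48.6, 50.4 and 44.4 in endothelial cells. None of the 3 overlapped between podocytes and another cell type, and in each the highest mesangial array was C. The podocyte to mesangial difference was 12.0-fold for *Magi2*, 13.5-fold for *Plce1* and 27.8-fold for *Ptpro* in limma, and 15.4-fold, 19.5-fold and 50.2-fold without array C. Against endothelial cells it was 20.9-fold, 27.8-fold and 52.7-fold. On the 5 mesangial arrays other than wild type C, the signals of *Nphs1*, *Magi2*, *Plce1* and *Ptpro* ran from 43.9 to 73.7. The other transcript cluster of *Magi2* had the same order at lower signals, with 69.6 to 159 on podocyte arrays, 37.0 to 42.9 on mesangial arrays and 33.5 to 45.3 on endothelial arrays. The other transcript cluster of *Nphs1* was below 100 on all 18 arrays.

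*Podxl* gave 2839, 2601 and 2920 in wild type podocytes, 1061, 1009.8 and 937 in endothelial cells and 79.4, 82.4 and 725 in mesangial cells. The groups did not overlap in any pair of cell types, and podocytes were the highest. The podocyte signal was 16.6-fold above the mesangial one in limma (adjusted p = 0.00198), and 34.4-fold without array C. It was 2.78-fold above the endothelial one, a difference that did not pass with all arrays (adjusted p = 0.123 by limma) and passed without array C at the same fold (adjusted p = 2.47e-06), because the spread is shared by the 3 cell types in the fit. The endothelial signal was 5.96-fold above the mesangial one (adjusted p = 0.0184 by limma) and 12.4-fold without array C. The call was lost without mesangial array A or B or endothelial array B or C, at adjusted p of 0.0502 to 0.0665, and with an intensity trend, at 0.0528.

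*Fat1* gave 947, 764 and 931 in wild type podocytes and 765, 671 and 678 in mesangial cells, with overlap between them, and 59.6, 67.7 and 55.04 in endothelial cells. Podocytes and mesangial cells were not called different, with a log2 difference of 0.32 (95% interval 0.05 to 0.58, adjusted p = 0.0737 by limma). Against endothelial cells *Fat1* was 14.5-fold higher in podocytes and 11.6-fold higher in mesangial cells. The endothelial signals were near the array median, so these ratios too are bounded by the background.

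*Kirrel* gave 298, 279 and 316 in wild type podocytes, 144, 163 and 143 in mesangial cells and 54.3, 58.0 and 48.3 in endothelial cells. All 3 cell types were separated, with podocytes 1.98-fold above mesangial cells (adjusted p = 9.14e-05 by limma) and mesangial cells 2.81-fold above endothelial cells. The endothelial signals were below 100, so the ratio over them is bounded by the background. *Kirrel2* lay at the minimum in podocytes, with 91.9, 95.9 and 113, and below it in mesangial cells (72.9, 73.2 and 64.8) and endothelial cells (87.1, 75.6 and 75.7). Its podocyte arrays were above all others, but neither difference reached 1.5-fold, with 1.42-fold over mesangial cells (adjusted p = 0.00716 by limma) and 1.26-fold over endothelial cells (adjusted p = 0.0364).

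*Trpc6* ran the other way. It gave 261, 258 and 187 on the wild type mesangial arrays, 102, 75.4 and 91.6 on the wild type podocyte arrays and 47.1, 46.2 and 52.8 on the wild type endothelial arrays. The 3 groups did not overlap. Podocytes were 2.61-fold below mesangial cells (adjusted p = 0.000152 by limma) and 1.83-fold above endothelial cells (adjusted p = 0.00171), although only 1 of the 3 podocyte arrays reached the minimum. The 10 mesangial markers summed to 4571 to 5461 on the wild type podocyte arrays and to 12942 to 14070 on the wild type mesangial arrays, and their part in the podocyte signals of *Trpc6*, *Fat1* and *Kirrel*, in either genotype, was not tested. Mesangial cells were 4.78-fold above endothelial cells. The endothelial signals of *Trpc6* were below 100, so its ratios over them are bounded by the background. Between wild type mesangial and endothelial cells 4 of the 9 genes were called higher and 1 lower, where 17.5% of transcript clusters were called, 9.58% as higher and 7.91% as lower. The fourth after *Kirrel*, *Fat1* and *Trpc6* was *Magi2* at 1.74-fold (adjusted p = 0.0334 by limma), which was 1.36-fold and not called without array C. The 5 genes called in all became 3 without endothelial wild type array B or C, where *Magi2* and *Podxl* were no longer called.

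The central comparison set mutant against wild type podocytes. Of the 9 genes only *Ptpro* passed the screen of the study, which asks for an unadjusted p below 0.05 together with more than a 1.5-fold change, and it was lower in the podocytes labelled mutant. Of the 12113 transcript clusters tested, 5.61% passed and 4.34% passed as lower. No gene of the 9 had a limma adjusted p under 0.05, which 0.0578% of all tested had. The log2 fold changes of 7 of the 9 were below 0, with a median of -0.30 against -0.04 over all transcript clusters tested. In 5 genes every array labelled mutant lay below every wild type array, where 14.3% of all tested did so, and in 1 gene every one lay above, where 6.97% did so. *Trpc6* is among the 5 but entered the comparison through 1 wild type array alone, so that count is a description.

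*Ptpro*, the receptor phosphatase, gave 1706, 1167 and 2083 on the podocyte arrays labelled mutant and 2903, 2249 and 2435 on the wild type ones. The groups did not overlap, and mutant array B was the lowest at 46.1% of the wild type mean. The log2 fold change was -0.65 (standard error 0.22, 95% interval -1.17 to -0.13), a 1.57-fold lower signal with an unadjusted p of 0.0210 and an adjusted p of 0.267 from limma. The call rested on single arrays. Without mutant array B the log2 fold change was -0.42 and without wild type array A -0.54, and neither passed. Relative to the 12 podocyte markers of the same array it was -0.52 and did not pass. In a fit of all 18 arrays the log2 fold change was the same, -0.65, but the standard error was 0.46 and it did not pass. That fit shares its spread with mesangial wild type array C, and the standard error of the *Ptpro* difference between podocyte and endothelial genotype effects was 0.65 with this array and 0.24 without it.

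*Plce1*, the phospholipase, gave 1039, 848 and 979 on the arrays labelled mutant and 1486, 1177 and 1443 on wild type arrays. *Fat1*, the cadherin, gave 685, 634 and 667 against 947, 764 and 931. *Magi2*, the scaffold, gave 879, 883 and 946 against 1152, 1043 and 1149. In all 3 genes the groups did not overlap and the unadjusted p was under 0.05, but the change was under 1.5-fold. With *Ptpro*, 4 of the 9 genes had such a p with a lower signal, against 10.9% of all tested. The log2 fold change was -0.52 for *Plce1* (95% interval -0.86 to -0.17), -0.41 for *Fat1* (-0.72 to -0.10) and -0.30 for *Magi2* (-0.58 to -0.03), with adjusted p of 0.213, 0.247 and 0.318 from limma. *Plce1* passed the screen without wild type array B, at -0.62. The other transcript cluster of *Magi2* gave 87.5, 100.2 and 69.6 on arrays labelled mutant and 93.4, 110 and 159 on wild type arrays, with overlap.

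*Nphs1* and *Podxl* overlapped between genotypes. *Nphs1* gave 1034, 1049 and 1298 on podocyte arrays labelled mutant and 1132, 1124 and 1284 on wild type arrays, which is -0.07 on the log2 scale (95% interval -0.40 to 0.26, adjusted p = 0.849 by limma). *Podxl* gave 2465, 2426 and 2761 against 2839, 2601 and 2920, a log2 fold change of -0.13 (95% interval -0.41 to 0.16, adjusted p = 0.666 by limma). For both genes the interval leaves out a fall of 1.5-fold, and it does not show that the levels were the same. Relative to the podocyte markers of the same array, both log2 fold changes turned sign, as given at the end. *Podxl* is also an endothelial gene, and the summed endothelial markers were lower on every podocyte array labelled mutant, as given above. Their part in its values was not tested.

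*Kirrel* was the gene with every array labelled mutant above the wild type, at 319, 342 and 382 against 298, 279 and 316. The log2 fold change was 0.22 (95% interval -0.08 to 0.52, adjusted p = 0.470 by limma), which did not pass. Its relative *Kirrel2* gave 103, 102 and 164 against 91.9, 95.9 and 113, with overlap and a log2 fold change of 0.26 (adjusted p = 0.589). *Trpc6* was below the minimum on each podocyte array labelled mutant, at 72.4, 72.6 and 69.3, and gave 102, 75.4 and 91.6 on wild type arrays. These groups did not overlap, at a log2 fold change of -0.32 (adjusted p = 0.369 by limma), but the levels were close to background.

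**Figure D3:**
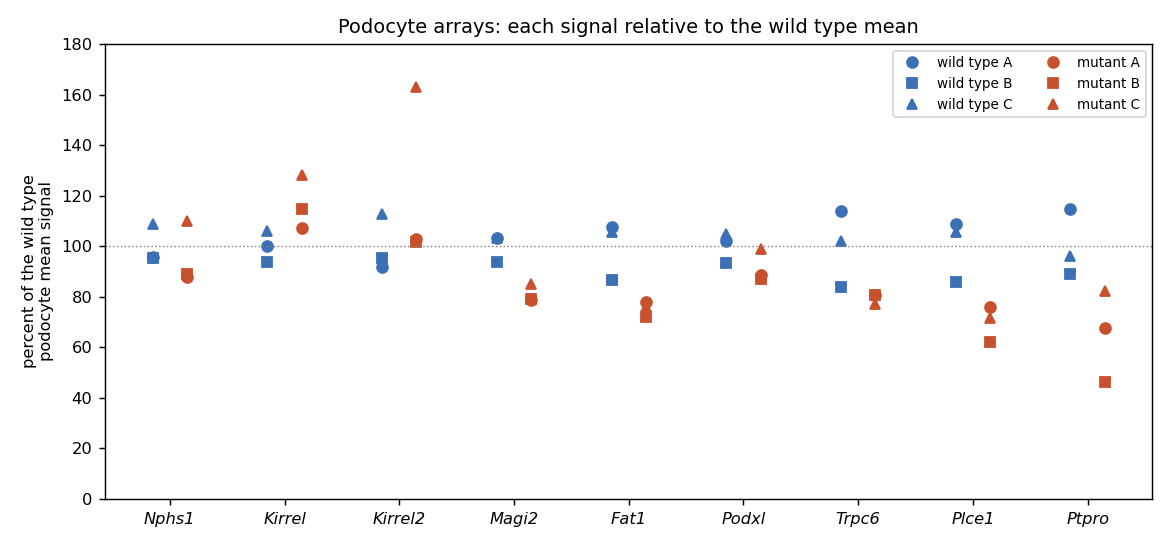
Signal of each gene on the 3 podocyte arrays labelled mutant and the 3 wild type podocyte arrays, as a percent of the wild type mean of that gene, with 1 symbol per array and a dotted line at 100. All points labelled mutant lie below all wild type points for *Magi2*, *Fat1*, *Trpc6*, *Plce1* and *Ptpro* and above them for *Kirrel*, and mutant array B has the lowest *Ptpro* at 46.1%.

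The 3 podocyte arrays labelled mutant were not alike. Array C had the highest signal of the 3 for 6 of the 9 genes, and array B the lowest for 5. The sum of the podocyte markers took the same order, at 14166 on array A, 12836 on B and 15015 on C, while wild type arrays gave 15085, 13999 and 15249. None of the 12 podocyte markers passed the genotype screen, and their median log2 fold change was -0.14. Array C also had the lowest sums of endothelial markers (1023) and mesangial markers (1573) of the 3. The part of these other cells in the order of the arrays was not tested. In such bulk samples fewer podocytes among the sorted cells and less RNA of a gene per podocyte cannot be told apart.

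In mesangial cells only *Trpc6* passed the screen, and it was lower on the arrays labelled mutant. Of the 9 genes, 8 reached the minimum on at least 1 of the 6 mesangial arrays, and 5.19% of the 11457 transcript clusters tested passed, 3.12% as lower. *Trpc6* gave 73.9, 147 and 108 on the arrays labelled mutant and 261, 258 and 187 on the wild type ones. The groups did not overlap. The log2 fold change was -1.14 (standard error 0.26, 95% interval -1.76 to -0.52), 2.20-fold lower, with an unadjusted p of 0.00354 and an adjusted p of 0.0723 from limma. Without wild type array C, the lowest of the wild type arrays for this gene, it was -1.30 with an adjusted p of 0.0724. It passed the screen without any 1 of the 6 arrays, with log2 fold changes of -1.38 to -0.88. The 10 mesangial markers summed to 11116 to 12179 on the arrays labelled mutant and to 12942 to 14070 on wild type arrays. Of the 10, 6 had a log2 fold change below 0, 2 passed as lower and 1 passed as higher, and their part in the *Trpc6* result was not tested.

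*Fat1* and *Kirrel*, which were above 100 on all 6 mesangial arrays, did not pass. *Fat1* gave 709.8, 947 and 814 on the arrays labelled mutant and 765, 671 and 678 on wild type arrays, or 0.22 on the log2 scale (adjusted p = 0.369, limma). *Kirrel* gave 160.0, 190.0 and 175 against 144, 163 and 143, a log2 fold change of 0.22 (95% interval -0.02 to 0.46, adjusted p = 0.269 by limma). Both overlapped between genotypes.

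For the other 5 tested genes the mesangial difference depended on 1 array. *Nphs1*, *Magi2*, *Plce1* and *Ptpro* reached the minimum only on wild type array C, at 152 to 293. Their log2 fold changes of -0.48, -0.55, -0.88 and -0.92 did not pass, and without array C none of the 4 could be tested. *Plce1* passed without wild type array A, at -1.17, and *Magi2* without wild type array B, at -0.74, both fits that keep array C. *Podxl* gave 113, 107 and 60.2 on arrays labelled mutant and 79.4, 82.4 and 725 on wild type arrays. Its log2 fold change was -0.90 with array C and 0.15 without it, and passed in neither.

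**Figure D4:**
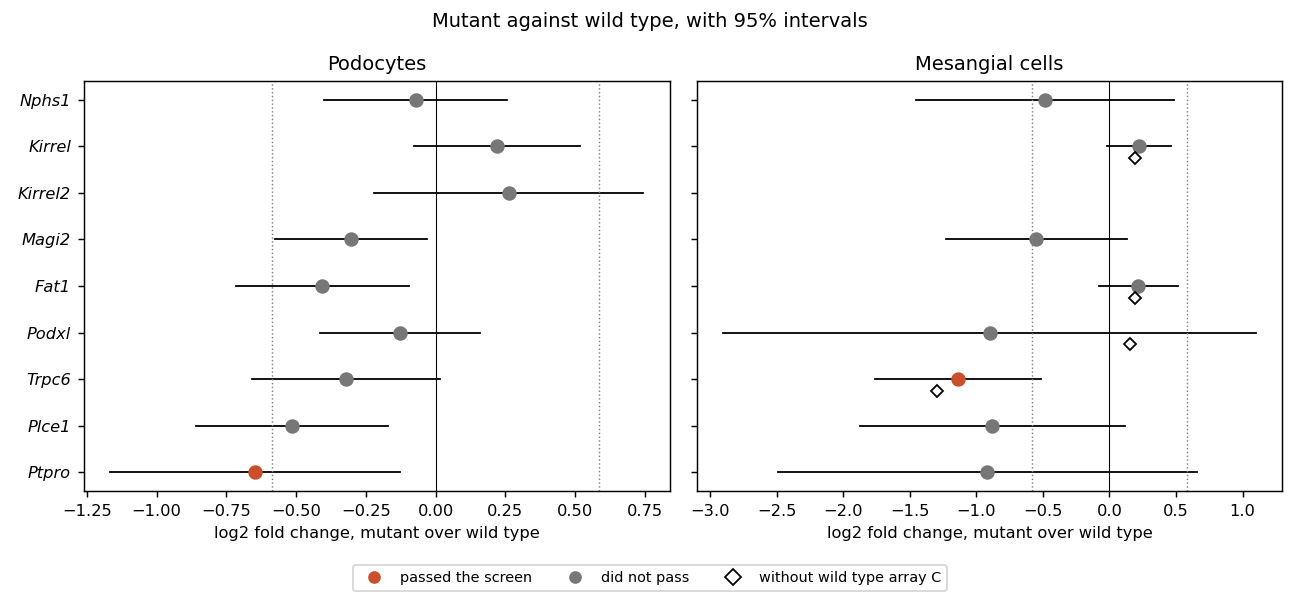
Log2 fold change of arrays labelled mutant over wild type arrays for each gene tested in podocytes (left) and mesangial cells (right, on a wider axis), with 95% intervals from limma, dotted lines at 1.5-fold and open diamonds for the mesangial fit without wild type array C. *Ptpro* in podocytes, at -0.65, and *Trpc6* in mesangial cells, at -1.14, passed the screen, and *Podxl* in mesangial cells moves from -0.90 to 0.15 without array C.

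In endothelial cells only *Podxl* reached the minimum. It gave 1056, 1250.0 and 1037 on the arrays labelled mutant and 1061, 1009.8 and 937 on wild type arrays, with overlap. The log2 fold change was 0.15 (95% interval -0.10 to 0.40, adjusted p = 0.473 by limma), and 0 genes were called by the screen or at an unadjusted p under 0.05, where 3.82% of 11330 transcript clusters passed the screen and 18.5% had such a p. The other 8 genes ran from 40.5 to 87.1 on the 6 endothelial arrays.

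Whether the effect of genotype differed between cell types was tested in 1 limma fit of all 18 arrays. None of the 9 reached an adjusted p of 0.05 in any of the 3 contrasts, where 0.717% of 13523 transcript clusters did for podocytes against mesangial cells, 2.11% for podocytes against endothelial cells and 1.07% for endothelial against mesangial cells. At an unadjusted p under 0.05 the counts were 2, 2 and 1 of the 9 genes, and 12.0%, 23.4% and 15.9% of all tested. Of the 9 genes only *Podxl* reached the signal minimum on endothelial arrays. *Kirrel2*, *Nphs1*, *Magi2*, *Plce1* and *Ptpro* reached it on no mesangial array other than wild type C. For most of the 9 genes these contrasts therefore had no measurable effect in at least 1 of the cell types, and the counts are a description. *Fat1* had opposite signs in podocytes and mesangial cells, and its log2 fold change in podocytes was lower by 0.62 (95% interval of the difference -0.998 to -0.248, adjusted p = 0.140). *Trpc6* had a log2 fold change in endothelial cells, where it was at background, that was 1.13 above that in mesangial cells (95% interval 0.56 to 1.71, adjusted p = 0.0568), a contrast that mostly restates the mesangial difference. That adjusted p was 0.0285 without mesangial wild type array C and 0.0143 without mesangial mutant array B. For *Trpc6* the effect in podocytes was 0.82 above that in mesangial cells (adjusted p = 0.206). For *Ptpro* the effect in podocytes minus that in mesangial cells turned sign with mesangial wild type array C, as it did for *Nphs1*, *Magi2*, *Podxl* and *Plce1*, and was 0.27 with it (adjusted p = 0.922) and -0.58 without it (unadjusted p = 0.0386, adjusted p = 0.377). Its difference from the effect in endothelial cells was -0.45 either way, with an adjusted p of 0.694 with array C and 0.263 without it. *Ptpro* was below 100 on all endothelial arrays and on the mesangial arrays other than wild type C. The endothelial contrast, and the mesangial one without array C, therefore mostly restate the podocyte difference.

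The partners of the slit diaphragm proteins were read as a list of 26 genes of adaptors, polarity proteins and linkers. In podocytes 24 were tested, 1 was higher and 1 lower in the arrays labelled mutant, where 5.61% of all transcript clusters passed, and the median log2 fold change was -0.09 against -0.04 over all. *Iqgap1*, which encodes a scaffold that binds actin and nephrin, rose from 585 ± 15.0 to 1017 ± 117 (SD, n = 3 each), a log2 fold change of 0.79 (adjusted p = 0.125 by limma). It passed the screen without any 1 of the 6 arrays, and its genotype effect was larger in podocytes than in mesangial cells by 0.89 (adjusted p = 0.00735) and than in endothelial cells by 0.60 (adjusted p = 0.0428). *Sh3kbp1*, the relative of *Cd2ap* that encodes the adaptor CIN85, was lower at 102 ± 40.7 against 174 ± 24.2 (SD, n = 3 each), a log2 fold change of -0.83 (adjusted p = 0.234 by limma) that did not pass without mutant array C or wild type array A. In wild type cells it was 3.13-fold higher in mesangial cells than in podocytes, and 9 of the 10 mesangial markers had log2 fold changes below 0 in podocytes, with a median of -0.47, 2 passing as lower and the lowest sum on mutant array C. Their part in this result was not tested. In mesangial cells 23 partners were tested, where 5.19% of all passed, and 1 was lower, *Slc9a3r2*, the linker between podocalyxin and ezrin, at -0.86 (adjusted p = 0.138 by limma), which did not pass without wild type array C. *Slc9a3r2* was 1564 in wild type endothelial cells against 605 in wild type mesangial cells. All 10 endothelial markers had log2 fold changes below 0 in mesangial cells, with a median of -0.37 and 2 passing as lower. The part of these markers in the *Slc9a3r2* value was not tested. In endothelial cells 21 were tested and none passed, with 3 at an unadjusted p under 0.05 in limma, as for 18.5% of all tested.

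A further list held 19 relatives of the 9 genes. In podocytes 8 were tested and 3 were lower in the arrays labelled mutant, where 4.34% of all tested were. Of the 8, 3 reached 100 on wild type podocyte arrays and on no mutant one, *Plcb1* among them, so this count is a description. The 3 lower genes were the phosphatase gene *Ptprb* at -1.89, the sialomucin gene *Cd34* at -1.77 and the phospholipase gene *Plcb1* at -0.96 (adjusted p = 0.143, 0.257 and 0.213 by limma). All 3 were higher in wild type endothelial cells than in wild type podocytes, by 4.44-fold, 1.93-fold and 6.17-fold, and the endothelial markers moved the same way on these arrays, with 8 of the 10 passing as lower and a median of -1.56. *Cd34* was also 2.29-fold higher in wild type mesangial cells than in wild type podocytes. Of the 10 mesangial markers, 9 had log2 fold changes below 0 in podocytes, with a median of -0.47. The part of either set of markers in the result was not tested. The *Cd34* call was lost without wild type array A.

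In mesangial cells 7 relatives were tested, 1 was higher and 3 were lower, where 5.19% of all tested passed and 3.12% passed as lower. *Trpc4*, a channel gene of the same family as *Trpc6*, fell from 398 ± 76.6 to 162 ± 30.5 (SD, n = 3 each), a log2 fold change of -1.30 (adjusted p = 0.0250 by limma). The value of *Trpc6* in the same cells was -1.14. *Fat4*, the relative of *Fat1*, rose from 96.2 ± 20.1 to 202 ± 21.5 (SD, n = 3 each), a log2 fold change of 1.09 (adjusted p = 0.0261 by limma). *Cd34* was lower at 760 ± 62.5 against 1566 ± 68.9 (SD, n = 3 each), with an adjusted p of 0.00538 by limma. *Trpc4*, *Fat4* and *Cd34* passed the screen without any 1 of the 6 arrays. *Ptprb* was lower at -1.60 (adjusted p = 0.150), and did not pass without mutant array C. Its wild type arrays ran from 302 to 1030. *Cd34* and *Ptprb* are also carried by endothelial cells. *Ptprb* was 2292 in wild type endothelial cells against 548 in wild type mesangial cells, while *Cd34* was 1334 against 1566. All 10 endothelial markers had log2 fold changes below 0 in mesangial cells, with a median of -0.37 and 2 passing as lower. Their part in these results was not tested. In endothelial cells 6 relatives were tested, and none passed the screen or had an unadjusted p under 0.05 in limma.

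The genes outside the 9 whose signals ran most like those of 3 of them were found by the root mean square difference of centred log2 signals over the 18 arrays, among 11122 transcript clusters. For *Nphs1* they were *Myom2* (0.16), *Rab3b* (0.23) and *Rdh9* (0.25), where the median over all was 2.06. For *Podxl* they were *Clic5* (0.39), *Cd55* (0.42) and *Flrt2* (0.63), with a median of 2.00. For *Fat1* they were *Alcam* (0.23), *Bmpr1a* (0.24) and *Daam2* (0.34), with a median of 1.75. Among the 9 genes themselves, *Nphs1* was nearest to *Magi2* (0.22) and *Plce1* (0.25), and *Podxl* and *Fat1* were the farthest apart (2.89). These distances share all 18 arrays and are set mostly by the cell types.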

How the data were processed

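RNA of the sorted cells was amplified in 1 round by Ribo-SPIA before hybridization to Mouse Gene ST arrays of Affymetrix. The authors deposited intensity values on a linear scale, made per the labels by RMA at the gene level, which corrects background, normalizes quantiles and summarizes probes. These were used as deposited. A second set of 18 columns holds the same values as log2, centred on each row, and was read only to check this. The series record names Exon arrays, which the file header does not. RNA-seq was not analysed here.

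A linear model without covariates was fitted to log2 signals (limma 3.58.1, R 4.3.3) over transcript clusters whose signal reached 100 on at least 1 array of the fit, with moderated variances. Genotypes were compared within each cell type, wild type cell types in 1 fit of 9 arrays, and genotype effects in 1 fit of 18. P values were adjusted by Benjamini-Hochberg over all transcript clusters of a comparison. Groups of 3 arrays set the precision. Columns could be tied to groups and not to single samples.

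Named genes are the 9 genes, *Cd2ap*, the partners and relatives that passed the screen, and the 3 genes most like *Nphs1*, *Podxl* and *Fat1*. The markers named beside array C were chosen after their values were seen. The genes and lists were chosen with earlier results of these data known. A few items are not reported here. The script was tested on simulated data.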

Additional observations from a re-analysis of the deposited data

Results flagged for a closer look

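None of the 9 genes had a genotype effect that differed between cell types at an adjusted p under 0.05 by limma. Of these genes only *Podxl* reached 100 on endothelial arrays. *Kirrel2*, *Nphs1*, *Magi2*, *Plce1* and *Ptpro* reached it on no mesangial array other than wild type C. For most of the 9 genes these contrasts therefore had no measurable effect in 1 of the cell types, and the count is a description. Of 25 partners and 9 relatives tested, 1 partner and 1 relative did for podocytes against mesangial cells, 1 partner for podocytes against endothelial cells and 2 relatives for endothelial against mesangial cells, where 0.717%, 2.11% and 1.07% of all transcript clusters did. The log2 fold change of *Iqgap1* in podocytes exceeded that in mesangial cells by 0.89 (adjusted p = 0.00735) and that in endothelial cells by 0.60 (adjusted p = 0.0428). That of *Fat4* in podocytes, where its signals were below 100 on all 6 arrays, was below that in mesangial cells, a difference of -1.17 (adjusted p = 0.0290), and that in endothelial cells was below it by a difference of -1.04 (adjusted p = 0.0403). That of *Trpc4* in endothelial cells, where its signals were below 100, was above that in mesangial cells by 1.03 (adjusted p = 0.0215). Each was found by the interaction contrast of the fit of 18 arrays. For *Trpc4* against endothelial cells and *Fat4* against podocytes no genotype effect could be measured in the cells below 100, so these contrasts restate the mesangial differences and show no difference between cell types.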

How the results depend on the processing

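No paired analysis was possible because no replicate number is shared between groups and the deposited columns do not carry the labels' numbers. The alternatives were other signal minimums, another fit, an intensity trend, subtraction of array medians, quantile normalization, the mean over a gene's transcript clusters and leaving out each array, and the podocyte marker reference was added after the data were seen. In podocytes the count of genes passing, 1, was 0 with all 18 arrays in 1 fit, where *Ptpro* stayed at -0.65 with a standard error of 0.46 against 0.22, 0 at an adjusted p under 0.05 and 0 relative to the podocyte markers, and 0 to 2 leaving out 1 array. Relative to these markers, a shift shared by all genes of an array, *Nphs1* went from -0.07 to 0.058 and *Podxl* from -0.13 to 0.00079 (log2). In mesangial cells the count of 1 was 2 in the fit of 18 arrays, where *Plce1* passed as well, 0 at an adjusted p and 1 to 2 leaving out 1 array. The *Podxl* log2 fold change there ran from -1.44 to 0.15. Between wild type mesangial and endothelial cells the count of 5 was 3 to 5, and the *Nphs1* difference ran from -0.10 to 0.69. Against endothelial cells the podocyte count of 7 was 7 to 8. In the contrast of endothelial and mesangial genotype effects the count of 0 was 1 with array medians subtracted (*Trpc6*, 1.22, adjusted p = 0.035 by limma) and 0 to 1 leaving out 1 array. Among the settings that leave out no array, 353 values kept their direction and side of the threshold, 7 became weaker, 6 stronger and 2 reversed.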
